A study of Mus musculus with 9 samples.

Results

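The 10 genes described here are nuclear genes of mitochondrial biogenesis, fission and fusion. Ppargc1a, Nrf1, Esrra, Tfam and Polg stand for biogenesis, Fis1 and Dnm1l for fission, and Mfn1, Mfn2 and Opa1 for fusion. All 10 were chosen by name, with earlier results of these data known. They are 10 of the 47729 genes counted, and 10 of the 17988 that passed a filter on low counts. RNA was sequenced from YFP-positive midbrain dopamine (DA) neurons, collected by cell sorting from mouse embryos at E15.75, a stage that the study's methods give and the labels do not. All embryos, Dot1l(+/+) included, carried 1 Pitx3-Cre allele and a Rosa26 lox-stop-lox YFP reporter on a C57BL/6J background. The groups differed in Dot1l, which encodes the histone H3 lysine 79 methyltransferase: Dot1l(+/+) had no floxed allele (3 libraries), Dot1l(fl/+) had 1 (3 libraries) and Dot1l(fl/fl) had 2 (2 libraries). Cre was made from the Pitx3 locus, so that recombination starts in post-mitotic DA precursors and 1 copy of Pitx3 is lost in all groups, and each library was a pool of embryos. Per the study's methods, each pregnant female gave 1 embryo of each genotype, so that the pools of the genotypes were matched by litter, but no source used here says which libraries hold the same litters. Dot1l(fl/fl) 3 was not analysed here.

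Mitochondrial biogenesis is run from the nucleus. The coactivator PGC-1α, encoded by Ppargc1a, works with DNA-binding factors such as NRF1 and the orphan nuclear receptor ERRα (Esrra) on genes for respiratory chain subunits and for the proteins that copy and transcribe mitochondrial DNA (mtDNA), among them TFAM and the polymerase POLG. Mitochondria divide when the GTPase DRP1 (Dnm1l) is recruited to the outer membrane, where FIS1 is an adaptor, and they fuse through the outer membrane GTPases mitofusin 1 and 2 (Mfn1, Mfn2) and the inner membrane GTPase OPA1. DA neurons have long branched axons and depend on this balance, and mutations in genes of mitochondrial quality control cause inherited forms of Parkinson's disease.

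The promoters of the 10 genes were read first, since NRF1, ERRα and the ETS factor GABPA (also called NRF2) are textbook regulators of such genes, and the first and second are themselves products of members. RefSeq promoters on GRCm38.p6, from 250 bases before to 50 bases after each start, were searched on both strands for the NRF1 motif GCGCANGCG, the GABPA motif CCGGAAGT, the ERRα motif TCAAGGTCA and the cAMP response element TGACGTCA. All 10 genes had a promoter, in 15 windows over alternative starts. GCGCANGCG was found at 2 of 10 genes (Esrra and Opa1), against 7.03% of 27025 genes with a RefSeq promoter. CCGGAAGT was found at 4 of 10 (Tfam, Polg, Fis1 and Mfn1), against 4.31% of genes. TCAAGGTCA and TGACGTCA were found at 0 of 10, against 0.466% and 2.03% of genes. With the bases upstream of the start alone the counts stayed at 2 and 4, against 5.86% and 3.23%. A match is a description of letters and not a site of binding.

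The matched stretches are shown because they set apart 2 groups within the members, with the motif in capitals and the strand of the gene 5′ to 3′. The NRF1 matches lay 141 bases upstream of the RefSeq start of Esrra, at chr19:6921911-6921979 on the minus strand, and 59 bases upstream of that of Opa1, at chr16:29579245-29579313 on the plus strand, where a second match on the other strand overlaps the first by all but 1 base.
Esrra: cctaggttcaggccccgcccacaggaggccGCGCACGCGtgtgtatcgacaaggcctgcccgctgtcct
Opa1: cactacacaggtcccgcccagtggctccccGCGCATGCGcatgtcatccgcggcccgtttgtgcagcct

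The GABPA matches lay between 18 and 47 bases upstream of the RefSeq start, at chr5:136953227-136953274 for Fis1 (plus strand), chr3:32529408-32529464 for Mfn1 (plus strand), chr10:71238073-71238102 for Tfam (minus strand) and chr7:79466293-79466322 for Polg (minus strand). GENCODE starts Tfam and Polg further upstream, so for these genes the match lies within the annotated gene. Fis1 had another match, not shown, 19 bases after an alternative start.
Fis1: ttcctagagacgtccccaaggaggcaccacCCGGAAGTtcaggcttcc
Mfn1: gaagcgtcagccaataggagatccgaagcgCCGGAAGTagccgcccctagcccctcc
Tfam: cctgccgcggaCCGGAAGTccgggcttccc
Polg: gaggacctcacCCGGAAGTccctctgcacc

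Library totals lay between 13616922 and 43674673 counts, the Dot1l(fl/fl)-labelled libraries being the shallowest, and the 10 genes together took between 0.095% and 0.103% of counts. All 10 dopaminergic markers were at or above a mean of 1 CPM (counts of a gene per 1e6 counts of the library, with TMM-scaled totals). Markers of other cells reached it too: 7 of 7 for radial glia and progenitors, 5 of 5 for microglia, 4 of 4 GABAergic and 2 of 3 glutamatergic. Summed by library, radial glia and progenitor markers were at 217 to 257.4 CPM. Microglia markers were at 79.9 to 114.9 CPM and glutamatergic markers at 167 to 212.2 CPM. Dot1l itself was at 105.2, 84.6 and 94.6 CPM in Dot1l(+/+), 75.5, 65.6 and 76.2 CPM in Dot1l(fl/+), and 64.9 and 99.1 CPM in the Dot1l(fl/fl)-labelled libraries 1 and 2. The value of the library labelled Dot1l(fl/fl) 2 lay within the Dot1l(+/+) range, above all 3 Dot1l(fl/+) libraries. A count over all exons does not measure the loss of the single floxed exon, so this value does not settle whether the label is right. Every direction stated for Dot1l(fl/fl) from here on rests in part on this library. Another library stood apart in these genes: Dot1l(+/+) 2 was the highest or the lowest of the 3 Dot1l(+/+) libraries for 10 of 10 members, against 75% of all genes tested. Summed dopaminergic markers were lower in the Dot1l(fl/fl)-labelled libraries (4673.7 and 5651.8 CPM) than in the other 6 (5823.5 to 6702.5 CPM), with 9 of 10 below 0 on the log2 scale against Dot1l(+/+). Summed GABAergic markers were higher (233.3 and 260.6 against 192.6 to 225.4 CPM), although 2 of 4 lay above 0 and 2 below, from -0.36 to 0.37 with a median of -0.02. Blood markers (1 of 7 without a count in any library) were at 17.0 and 40.0 CPM in the Dot1l(fl/fl)-labelled libraries. The lower of these lay within the range of the other 6 (11.9 to 18.7 CPM), and 5 of 6 markers tested were above 0. Endothelial markers had 5 of 5 above 0 in both floxed genotypes, with medians of 0.67 in Dot1l(fl/fl) and 0.79 in Dot1l(fl/+). These markers were low, with 3 of 5 at a mean of 1 CPM or more. Their sums were 4.9 to 8.33 CPM in Dot1l(+/+), 3.8 to 14.3 CPM in Dot1l(fl/+), which overlapped with it, and 9.14 and 10.8 CPM in Dot1l(fl/fl). Radial glia and progenitor markers had 2 of 7 above 0 in both floxed genotypes. The part of these differences in the values below was not tested.

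Levels between genes were compared per kilobase of exon (RPKM, from the same CPM values). Exon length merged all annotated exons of a gene, whichever transcript they belong to, so the order depends on this choice. In Dot1l(+/+) Fis1, on chromosome 5 from 136953275 to 136966234 (GRCm38), was highest of the 10, at 91.0 ± 8.47 RPKM (SD, n = 3), above 97.6% of genes tested. Below it came Mfn2 at 39.5 ± 3.46 and Dnm1l at 37.6 ± 0.88 RPKM, whose ranges overlapped, with Mfn2 above Dnm1l in 5 of 8 libraries. The next steps did not overlap: Opa1 was at 22.0 ± 1.92, Mfn1 at 13.1 ± 0.855 and Tfam at 10.2 ± 1.11 RPKM, each above its successor in 8 of 8 libraries. The regulators and the polymerase were lowest, with Esrra at 4.89 ± 0.818, Ppargc1a at 3.62 ± 1.09, Nrf1 at 3.53 ± 0.299 and Polg at 2.75 ± 0.412 RPKM. The ranges of Esrra and Ppargc1a overlapped, as did those of Ppargc1a and Nrf1, and Ppargc1a was above Nrf1 in 3 of 8 libraries. By RPKM Polg was above 44.2% of genes tested. In mean CPM of Dot1l(+/+), without the exon length, the order differed. Nrf1 (36.3) and Polg (29.6) lay above Ppargc1a (23.9) and Esrra (21.5), and Fis1 (155.9) lay below Mfn2 (205). Each of the 5 fission and fusion genes lay above each of the 3 regulators and Polg in all 8 libraries.

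**Figure D1:**
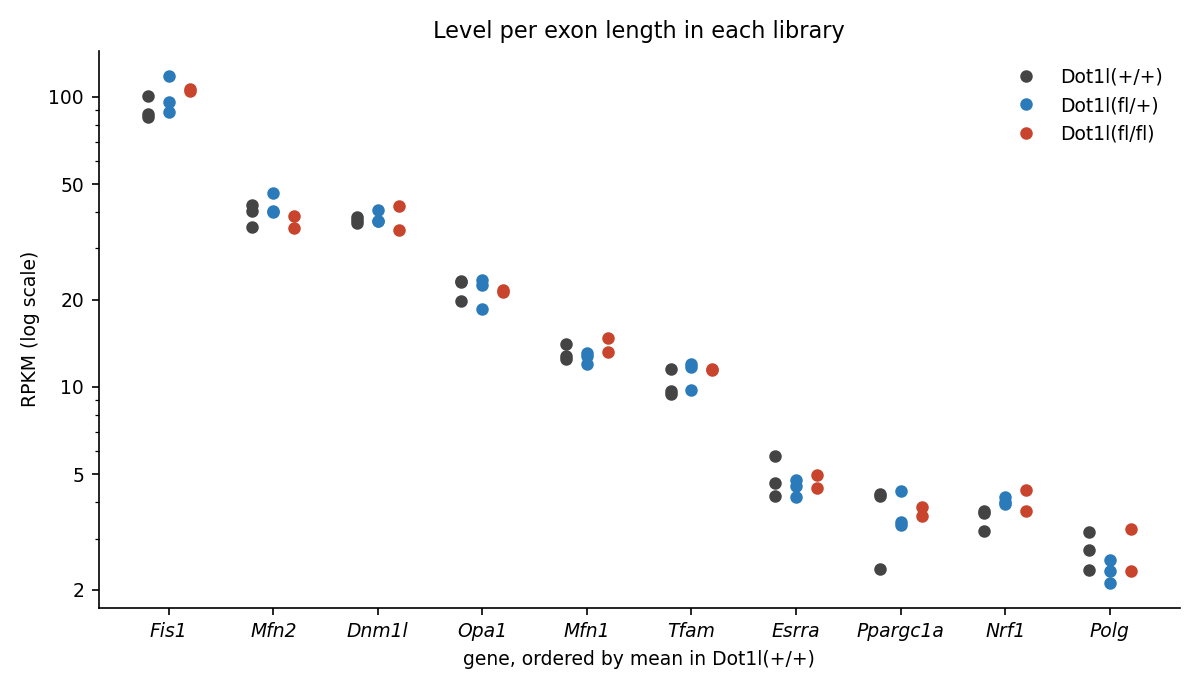
RPKM of each of the 10 genes (log axis) in each library, coloured by genotype and ordered by the mean in Dot1l(+/+). Fis1 lies above all other members in 8 of 8 libraries, Mfn2 and Dnm1l overlap, and Esrra, Ppargc1a and Nrf1 overlap near the bottom.

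No member passed the test for a difference between genotypes. Of 10 genes, 0 passed an adjusted p under 0.05 when Dot1l(fl/fl) or Dot1l(fl/+) was set against Dot1l(+/+), when Dot1l(fl/fl) was set against Dot1l(fl/+), or in a linear trend over the number of floxed alleles (edgeR's quasi-likelihood F test with Benjamini-Hochberg adjustment over 17988 genes). The background was the same, as 0% of genes passed in each of these 4 tests, with smallest adjusted p of 0.0985, 0.94, 0.717 and 0.0785. DESeq2 called 183, 0, 1 and 295 genes, none of them a member. It gave Ppargc1a, Esrra and Polg no adjusted p in Dot1l(fl/fl) against Dot1l(+/+) or in the trend, so it could not call them there. With the library numbers as a replicate block edgeR called 6, 0, 4 and 1 genes, again none of them a member. At an unadjusted p under 0.05 edgeR counted 0 of 10 members in each test, against 9.27%, 5.02%, 4.02% and 10.1% of genes in that order. The comparisons with Dot1l(+/+) share its libraries and are not independent of each other. The p-values measure the spread between these pools of embryos, and in such sorted bulk samples fewer cells of a type cannot be told apart from less RNA per cell.

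The intervals give the sizes of difference that these libraries leave possible. In Dot1l(fl/fl) against Dot1l(+/+) the 95% intervals of 10 of 10 members included no difference, and their outer bounds ran from 0.73-fold (Esrra) to 1.44-fold (Nrf1). In Dot1l(fl/+) against Dot1l(+/+) the bounds ran from 0.66-fold (Polg) to 1.39-fold (Nrf1), and from Dot1l(fl/+) to Dot1l(fl/fl) they ran from 0.73-fold (Ppargc1a) to 1.57-fold (Polg). On balance the members did not lean far either way: 7, 6 and 7 of 10 had a log2 fold change above 0 in these comparisons, with medians of 0.04, 0.03 and 0.02, where 49.5%, 49.0% and 50.2% of all genes lay above 0 with medians of 0.00, -0.01 and 0.00. Genes whose libraries did not overlap between genotypes were Fis1 in the first comparison (1 of 10, against 23.7% of all genes in either direction), Nrf1 in the second (1 of 10, against 11.5%), and Mfn1 and Mfn2 in the third (2 of 10, against 19.8%).

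**Figure D2:**
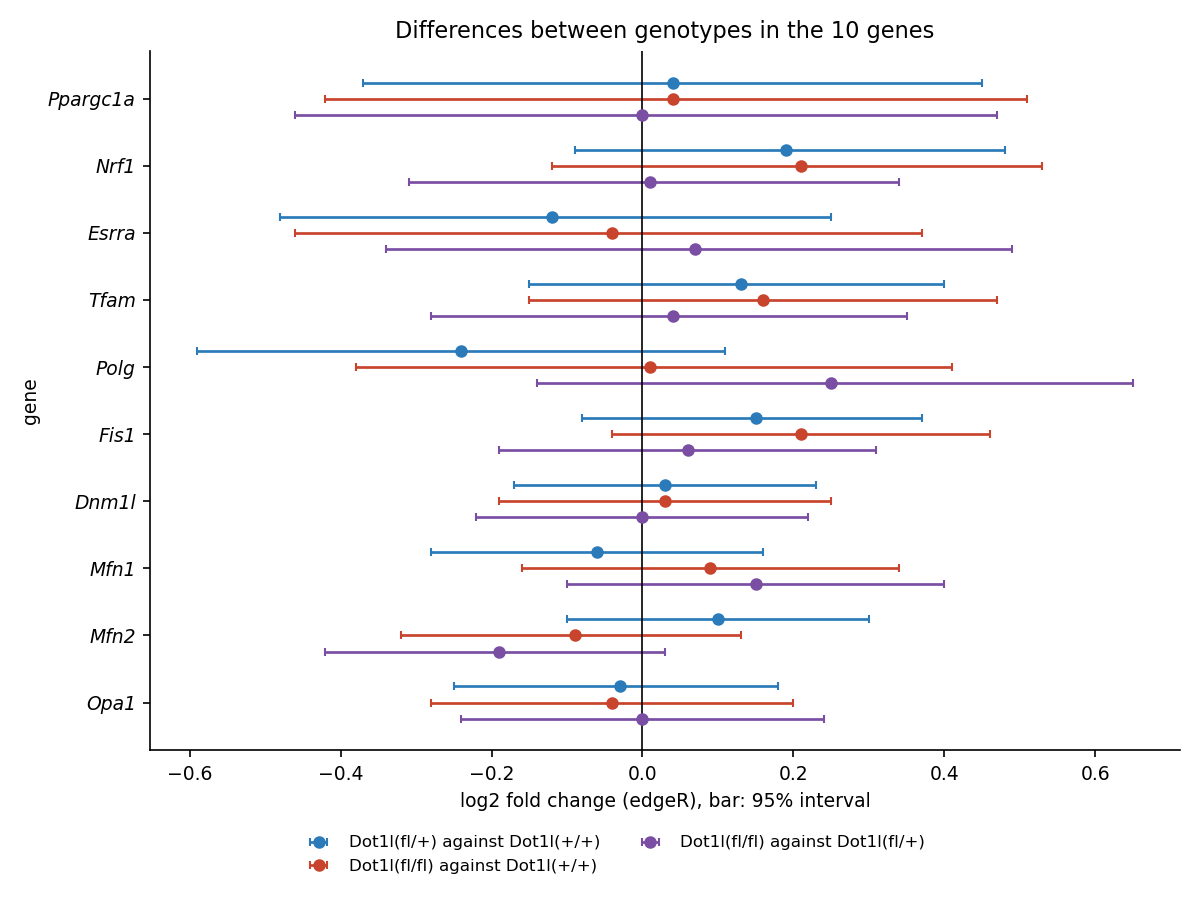
Log2 fold change of each gene (points) with its 95% interval (bars) in the 3 comparisons between genotypes, from 1 edgeR fit. All 30 intervals include 0, the narrowest being those of Dnm1l and Mfn2 and the widest those of Ppargc1a.

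Among the biogenesis regulators, Ppargc1a (chromosome 5, 51454250 to 51567726) was at 28.2, 15.5 and 27.8 CPM in Dot1l(+/+), at 22.5, 28.8 and 22.1 CPM in Dot1l(fl/+), and at 25.5 and 23.6 CPM in the Dot1l(fl/fl)-labelled libraries 1 and 2. The lowest value of all 8 belonged to Dot1l(+/+) 2, and the other 7 libraries lay between 22.1 and 28.8 CPM. The coefficient of variation in Dot1l(+/+) was accordingly 30.2%, the largest of the 10 genes in that genotype. The difference in Dot1l(fl/fl) against Dot1l(+/+) was 0.04 ± 0.23 on the log2 scale (SE; 95% interval -0.42 to 0.51; edgeR adjusted p = 0.986). Without Dot1l(+/+) 2 it was -0.19, with an adjusted p of 0.782 and the sign turned, which was the lowest value over the alternatives that leave out 1 library.

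Nrf1 (chromosome 6, 30047988 to 30153458) was at 38.5, 32.8 and 37.7 CPM in Dot1l(+/+), at 43.0, 40.5 and 41.1 CPM in Dot1l(fl/+), and at 45.4 and 38.3 CPM in the Dot1l(fl/fl)-labelled libraries. All 3 Dot1l(fl/+) libraries lay above all 3 Dot1l(+/+) libraries, while the library labelled Dot1l(fl/fl) 2 fell among the Dot1l(+/+) values. The difference was 0.19 ± 0.14 (95% interval -0.09 to 0.48; edgeR adjusted p = 0.954) in Dot1l(fl/+) and 0.21 ± 0.16 (-0.12 to 0.53; adjusted p = 0.749) in Dot1l(fl/fl), each on the log2 scale against Dot1l(+/+). Esrra (chromosome 19, 6910977 to 6921813) overlapped in all groups, from 18.4 CPM in Dot1l(fl/+) 1 to 25.4 CPM in Dot1l(+/+) 2, with a log2 difference of -0.04 ± 0.20 (adjusted p = 0.985) in Dot1l(fl/fl) against Dot1l(+/+). Its exons overlap 73 bases of Trmt112 on the opposite strand and a microRNA gene on its own strand, so part of its count is uncertain.

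TFAM packages mtDNA and starts its transcription, and Tfam (chromosome 10, 71225464 to 71238280) was at 43.1, 50.9 and 41.8 CPM in Dot1l(+/+), at 43.3, 53.2 and 52.1 CPM in Dot1l(fl/+), and at 50.7 and 50.8 CPM in the Dot1l(fl/fl)-labelled libraries. The Dot1l(fl/fl) values lay just under that of Dot1l(+/+) 2, and the log2 difference from Dot1l(+/+) was 0.16 ± 0.15 (95% interval -0.15 to 0.47; edgeR adjusted p = 0.823). Polg (chromosome 7, 79446231 to 79466362), for the catalytic subunit of the mtDNA polymerase, was at 34.0, 25.2 and 29.5 CPM in Dot1l(+/+), at 25.0, 22.8 and 27.3 CPM in Dot1l(fl/+), and at 25.0 and 34.8 CPM in the Dot1l(fl/fl)-labelled libraries 1 and 2. The library labelled Dot1l(fl/fl) 2 was the highest of all 8 and that labelled Dot1l(fl/fl) 1 among the lower ones, and the log2 difference from Dot1l(+/+) moved from 0.01 ± 0.19 (adjusted p = 0.995) to -0.24 on leaving out the library labelled Dot1l(fl/fl) 2, and to 0.23 on leaving out that labelled Dot1l(fl/fl) 1. Polg overlaps 921 exonic bases of Fanci on the opposite strand, and whether the counting used strand is not given in the sources used here.

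Of the fission genes, Fis1 came nearest to a difference. It was at 149.8, 172.5 and 145.5 CPM in Dot1l(+/+), at 151.8, 164.3 and 201.7 CPM in Dot1l(fl/+), and at 178.6 and 181.9 CPM in the Dot1l(fl/fl)-labelled libraries. Both of the latter lay above all 3 Dot1l(+/+) libraries, but the highest value of all was in Dot1l(fl/+) 3, and of the Dot1l(+/+) libraries the second lay nearest to them. The log2 difference was 0.21 ± 0.12 (95% interval -0.04 to 0.46, or 0.97- to 1.37-fold; edgeR adjusted p = 0.626), and the trend was 0.11 ± 0.06 per floxed allele (adjusted p = 0.561). Without Dot1l(+/+) 2 the difference was 0.29 ± 0.12, with an edgeR adjusted p of 0.289 and an interval that no longer included 0, and with a correction per library for the length and GC content of exons it was 0.13 ± 0.11, with an adjusted p of 0.913. Dnm1l (chromosome 16, 16312230 to 16358959) was the steadiest member in Dot1l(+/+), at 191.5, 200.5 and 194.9 CPM, a coefficient of variation of 2.34%. Its exons share 243 bases with the antisense gene Gm49521. In Dot1l(fl/+) it was at 211.6, 194.0 and 193.8 CPM. The Dot1l(fl/fl)-labelled libraries 1 and 2 were the lowest and the highest of all, at 181.3 and 218.2 CPM, and the log2 difference from Dot1l(+/+) was 0.03 ± 0.11 (95% interval -0.19 to 0.25; adjusted p = 0.983).

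The mitofusins of the Dot1l(fl/fl)-labelled libraries lay on opposite sides of Dot1l(fl/+). Mfn1 (chromosome 3, 32529465 to 32579239) was at 78.4, 86.2 and 76.3 CPM in Dot1l(+/+), at 78.1, 80.0 and 73.2 CPM in Dot1l(fl/+), and at 81.0 and 89.7 CPM in the Dot1l(fl/fl)-labelled libraries. Mfn2 (chromosome 4, 147873599 to 147904704) was at 209.7, 185.1 and 220.2 CPM in Dot1l(+/+), at 208.4, 240.8 and 210.1 CPM in Dot1l(fl/+), and at 201.0 and 183.1 CPM in the Dot1l(fl/fl)-labelled libraries. Mfn1 was thus above, and Mfn2 below, all 3 Dot1l(fl/+) libraries, while each overlapped with Dot1l(+/+). In Dot1l(fl/fl) against Dot1l(fl/+) the log2 difference was 0.15 ± 0.12 for Mfn1 (95% interval -0.10 to 0.40; edgeR adjusted p = 0.998) and -0.19 ± 0.11 for Mfn2 (-0.42 to 0.03; adjusted p = 0.998). The ratio of Mfn2 to Mfn1, per exon length, was 3.15, 2.53 and 3.40 in Dot1l(+/+), 3.14, 3.54 and 3.38 in Dot1l(fl/+), and 2.92 and 2.40 in the Dot1l(fl/fl)-labelled libraries. Mfn2 was the more abundant mitofusin in 8 of 8 libraries, and the ratio of Dot1l(+/+) 2 fell between those of the Dot1l(fl/fl)-labelled libraries.

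Opa1 (chromosome 16, 29579334 to 29654884) was at 181.8, 155.5 and 181.5 CPM in Dot1l(+/+), at 183.9, 176.7 and 146.1 CPM in Dot1l(fl/+), and at 168.0 and 169.4 CPM in the Dot1l(fl/fl)-labelled libraries. The low values were those of Dot1l(+/+) 2 and Dot1l(fl/+) 3, and the Dot1l(fl/fl) values lay between the extremes of either other genotype. The log2 difference in Dot1l(fl/fl) against Dot1l(+/+) was -0.04 ± 0.12 (95% interval -0.28 to 0.20; edgeR adjusted p = 0.982). The plot of CPM by library places these values beside those of the other members.

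**Figure D3:**
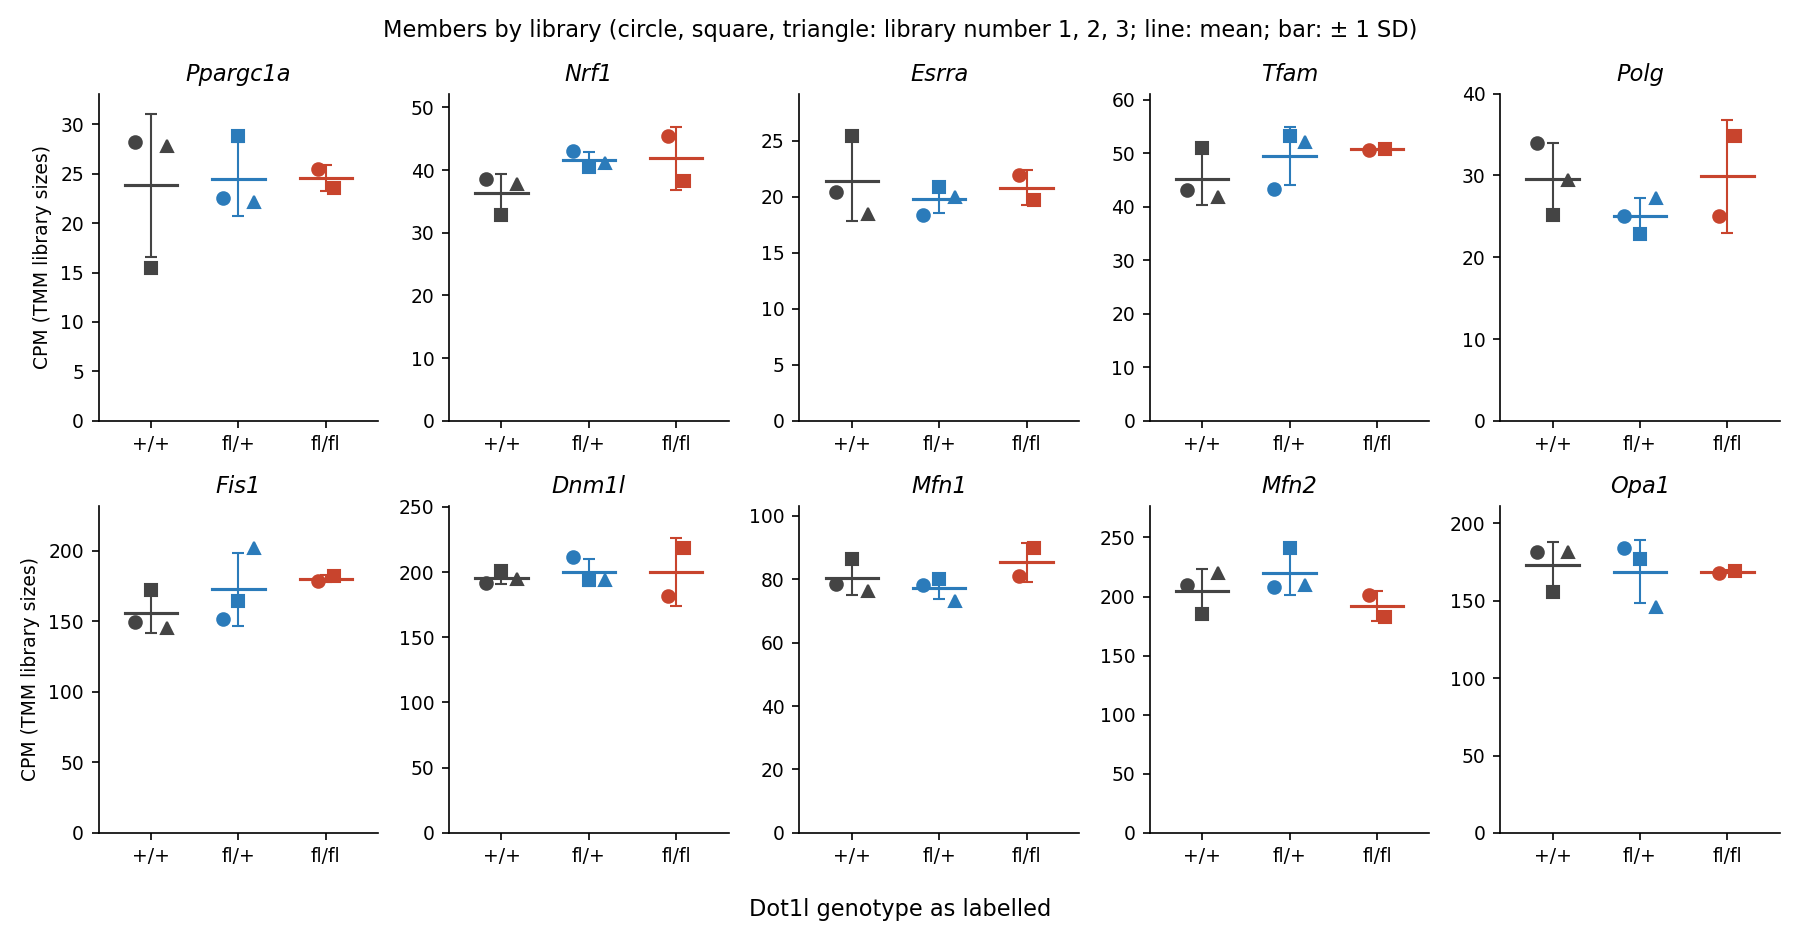
CPM of each of the 10 genes in each library (circle, square and triangle for libraries 1, 2 and 3), with the mean (line) and 1 SD (bar) per genotype; each vertical axis starts at 0. Ppargc1a has its low point in Dot1l(+/+) 2 at 15.5 CPM, and Fis1 in the Dot1l(fl/fl)-labelled libraries lies above Dot1l(+/+) but below Dot1l(fl/+) 3.

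Some members lay in opposite order from library to library. Over the 8 libraries Fis1 and Opa1 had a Pearson r of -0.88 in log2 CPM, and of -0.99 after the genotype means were taken out. The libraries with the lowest Opa1, Dot1l(fl/+) 3 and Dot1l(+/+) 2, had the highest Fis1 of their genotypes. Tfam and Opa1 had r = -0.68, Mfn1 and Mfn2 r = -0.67, and Ppargc1a and Esrra r = -0.63. These were the most negative pairs. The most positive were Tfam and Fis1 (0.83), Ppargc1a and Mfn2 (0.68), and Ppargc1a and Opa1 (0.63), while the fission genes Fis1 and Dnm1l were at -0.03. The share of all gene pairs at such values was not computed. All are descriptions over 8 libraries, which share genotypes and differ in depth. The members also differ in length and base composition: Fis1 has 1714 exonic bases at 54.4% GC, whereas Opa1 has 7875 bases at 43.5% GC. The part of length and GC content in these relations was not tested.

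**Figure D4:**
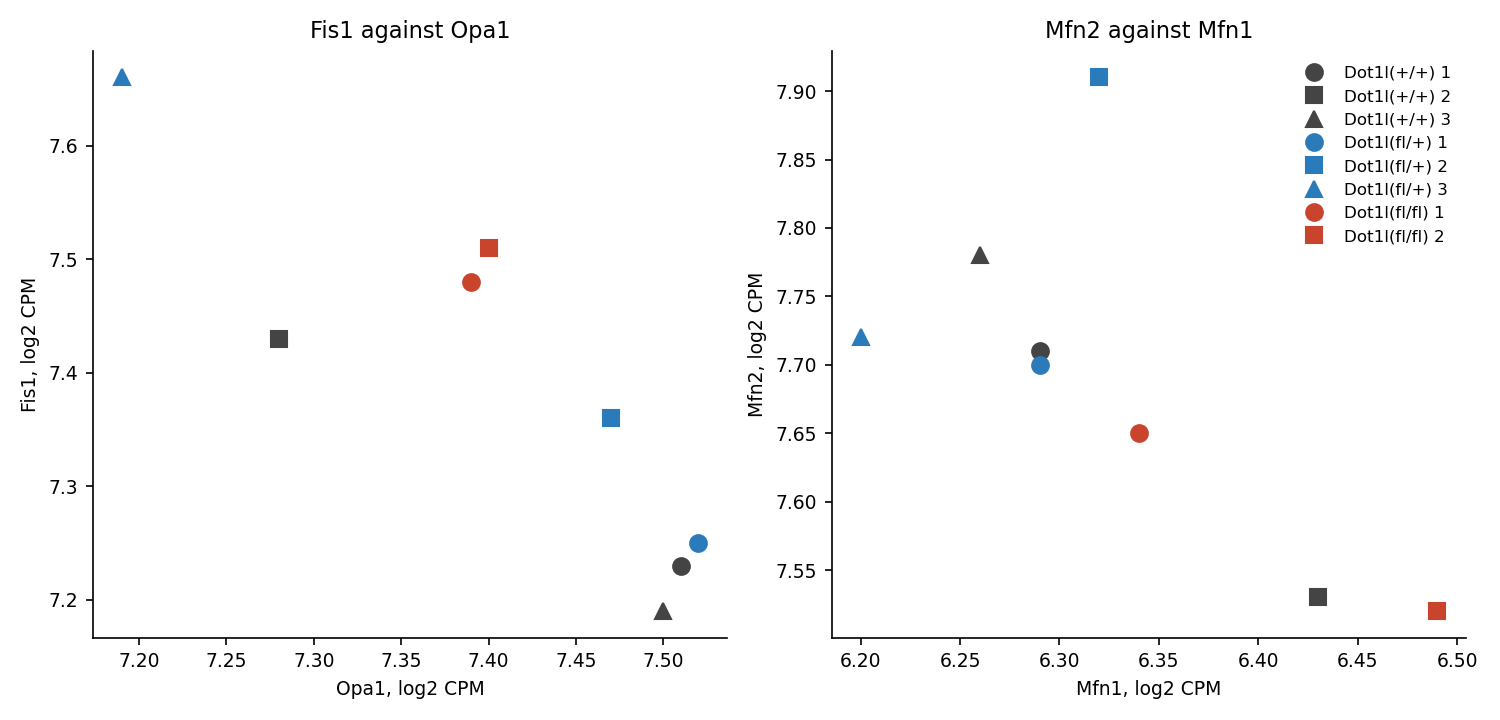
Log2 CPM of Fis1 against Opa1 (left) and of Mfn2 against Mfn1 (right), 1 point per library, with colour for genotype and shape for library number. Fis1 is high where Opa1 is low (r = -0.88), and Dot1l(+/+) 2 and the library labelled Dot1l(fl/fl) 2 lie together at high Mfn1 and low Mfn2.

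The genes whose log2 CPM followed a member most closely were sought among 14263 other genes with a mean of at least 1 CPM. Nearest to Ppargc1a over the 8 libraries were the processed pseudogene Gm5620 (Pearson r = 0.98), the zinc finger gene Zfp407 (0.96) and the stress-responsive transcription factor gene Atf5 (0.95). By rank (Spearman) these were at 0.9, 0.93 and 0.95, and Gm5620 was low, at a mean of 1.78 CPM. Nearest to Fis1 were Uqcrh, which encodes a subunit of respiratory complex III (0.97), the processed pseudogene Gm6274 (0.96) and 2310045N01Rik (0.95). These values describe 8 libraries and carry no test, and reads of a pseudogene may be shared with its parent gene.

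The other genes of these pathways were described by 5 lists chosen by name, with earlier results of these data known. Of their genes 0 passed the adjusted threshold in any comparison (edgeR). DESeq2 called Hcfc1 and Atp5b, with values given below, and gave some of the genes no adjusted p. Of 17 tested regulators of biogenesis, 6 were above 0 in Dot1l(fl/fl) against Dot1l(+/+), with a median log2 fold change of -0.13 where that of all genes was 0.00. Beside coactivators and transcription factors they include AMPK subunits and the corepressor gene Ncor1, so the median does not stand for activators alone. At the ends of this list stood Esrrb (-1.90, from 1.37 ± 1.12 to 0.363 ± 0.106 CPM), Ppargc1b (-0.39) and Prkaa1, the catalytic AMPK subunit α1 (0.16), none with an unadjusted p under 0.05. Ppargc1b rested on single libraries, at -0.70 without Dot1l(+/+) 2 and -1.24 with Dot1l(fl/fl)-labelled library 2 left out. Perm1, a PGC-1α target, ran from 0 to 0.231 CPM in Dot1l(+/+), from 0 to 1.34 CPM in Dot1l(fl/+) and from 0 to 0.576 CPM in Dot1l(fl/fl), where 3 counts are 0.0687 to 0.22 CPM by library, and gets no fold. Chosen after their values were seen, Hcfc1, which encodes a co-regulator of many nuclear promoters, was at 200.5 to 252.6 CPM in Dot1l(+/+), 193.2 to 196.1 CPM in Dot1l(fl/+) and 163.7 to 190.4 CPM in Dot1l(fl/fl). No library of 1 genotype overlapped with another. Between Dot1l(fl/fl) and Dot1l(+/+) 23.7% of all genes did not overlap, and the share over all 3 genotypes was not computed. The log2 difference of Hcfc1 in Dot1l(fl/fl) against Dot1l(+/+) was -0.36 ± 0.11 (edgeR adjusted p = 0.281, DESeq2 adjusted p = 0.0465). In the trend over floxed alleles Hcfc1 had an adjusted p of 0.2 (edgeR) and 0.0245 (DESeq2). Ncor1, the nuclear receptor corepressor, was at -0.29 ± 0.12 in Dot1l(fl/fl) against Dot1l(+/+) (edgeR adjusted p = 0.443). This list depended on 1 library: leaving out the library labelled Dot1l(fl/fl) 2 took its median to -0.34. With the correction for length and GC content its median was -0.08. Hcfc1 was then at -0.24 (edgeR adjusted p = 0.701) and Ncor1 at -0.18 (edgeR adjusted p = 0.807). Without Dot1l(+/+) 2 Hcfc1 was at -0.44 and Ncor1 at -0.37.

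Of 20 genes of mtDNA replication and transcription, 10 were above 0, with a median of 0.01. Dna2, which encodes a nuclease and helicase of nuclear and mitochondrial DNA repair, was lowest, at 5.95 ± 0.933 CPM in Dot1l(+/+) (n = 3), 3.95 ± 1.44 CPM in Dot1l(fl/+) (n = 3) and 2.59 ± 0.413 CPM in Dot1l(fl/fl) (n = 2). Its log2 difference in Dot1l(fl/fl) against Dot1l(+/+) was -1.20 ± 0.43 (95% interval -2.09 to -0.32, edgeR adjusted p = 0.341). The libraries of Dna2 did not overlap between these genotypes, as for 23.7% of all genes. The other ends of the list were Tfb2m, for a mitochondrial transcription factor (-0.30), Top1mt, for mitochondrial topoisomerase I (0.31), and Mterf4 (0.37). Without Dot1l(+/+) 2 these were smaller, at -0.14, 0.10 and 0.24. Of 14 further fission genes 8 were above 0, with a median of 0.03 and no unadjusted p under 0.05. Without Dot1l(+/+) 2 these were 6 of 14, a median of -0.02 and 2 genes (Mff and Mtfr1, both higher), and with Dot1l(fl/fl)-labelled library 2 left out the median was 0.09. They ran from Mief1, a DRP1 receptor (-0.23), and Spire1 (-0.06, or -0.16 without Dot1l(+/+) 2) to Mtfp1 (0.44, or 0.71 without Dot1l(+/+) 2 and 0.25 with Dot1l(fl/fl)-labelled library 2 left out). Mtfr2, at low counts, ran from 0 to 0.193 CPM in Dot1l(+/+), from 0 to 0.527 CPM in Dot1l(fl/+) and from 0.72 to 0.929 CPM in Dot1l(fl/fl), with an edgeR adjusted p of 0.663 in Dot1l(fl/fl) against Dot1l(+/+).

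Genes that support fusion and shape the inner membrane had 12 of 15 above 0 and a median of 0.13, which was 0.23 (11 of 15) with Dot1l(fl/fl)-labelled library 2 left out and 0.09 (11 of 15) with the correction for length and GC content. Chchd3 (0.29, adjusted p = 0.54) and Chchd6 (0.27, adjusted p = 0.575), subunits of the MICOS complex that holds cristae junctions, were highest, and Pld6, the mitochondrial phospholipase, and Fam73a (Miga1) were lowest (-0.62 and -0.24, or -0.36 for Pld6 without Dot1l(+/+) 2 and -0.39 for Fam73a with Dot1l(fl/fl)-labelled library 2 left out). Immt, the MICOS core subunit, named after its values were seen, was at 145.7 to 148.0 CPM in Dot1l(+/+), 160.0 to 171.3 CPM in Dot1l(fl/+) and 172.6 to 173.8 CPM in Dot1l(fl/fl). Its ranges did not overlap. Of all genes, 23.7% did not overlap between Dot1l(fl/fl) and Dot1l(+/+), 11.5% between Dot1l(fl/+) and Dot1l(+/+), and 19.8% between the floxed genotypes. The share that did not overlap over all genotypes at once was not computed. The log2 difference of Immt in Dot1l(fl/fl) against Dot1l(+/+) was 0.23 ± 0.10 (edgeR adjusted p = 0.475).

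The list of known NRF1 and ERRα target genes, mostly respiratory chain subunits, was the most one-sided, with 15 of 15 above 0 in Dot1l(fl/fl) against Dot1l(+/+), a median of 0.21, and 4 at an unadjusted p under 0.05, against 9.27% of all genes in either direction. Of the same genes 14 of 15 lay above 0 in Dot1l(fl/+), with a median of 0.10. The study reports most respiratory chain genes as up-regulated in these data, so the lean of this list is not independent of that report. By library, the median difference of the 15 genes from the Dot1l(+/+) mean was -0.03, 0.10 and -0.08 in Dot1l(+/+), 0.14, 0.04 and 0.20 in Dot1l(fl/+), and 0.30 and 0.14 in the Dot1l(fl/fl)-labelled libraries, on the log2 scale. Dot1l(+/+) 2 overlapped with Dot1l(fl/+), and the Dot1l(fl/fl)-labelled libraries lay above the 3 Dot1l(+/+) libraries. Sdhd, a succinate dehydrogenase subunit, was at 91.4 ± 17.9 CPM in Dot1l(+/+) and 111.1 ± 6.84 CPM in Dot1l(fl/fl) (log2 difference 0.28 ± 0.13; edgeR adjusted p = 0.517), and Cycs, for cytochrome c, was at 0.43 with an adjusted p of 0.812. Both moved with single libraries: without Dot1l(+/+) 2 Sdhd was at 0.45 and Cycs at 0.21, with Dot1l(fl/fl)-labelled library 2 left out Cycs was at 0.69, and with the correction for length and GC content Sdhd was at 0.14. Acadm, an enzyme of fatty acid oxidation, and Cox5b were lowest, at 0.01 and 0.07, and both were below 0 (-0.05 and -0.07) with that correction. Atp5b, the β subunit of ATP synthase, named after its values were seen, had the smallest p, with a log2 difference of 0.25 ± 0.08 (edgeR adjusted p = 0.299, DESeq2 adjusted p = 0.0664). In the trend over floxed alleles Atp5b had an adjusted p of 0.232 (edgeR) and 0.0387 (DESeq2). With the correction for length and GC content, applied to these lists after seeing the data, 13 of 15 lay above 0 with a median of 0.14 and 1 had an unadjusted p under 0.05, and without Dot1l(+/+) 2 these were 14 of 15, 0.25 and 8, while the genes of the whole table that were higher at that p went from 763 to 1110. Nrf1 and Esrra themselves, whose products act on this list, were at 0.21 and -0.04 in Dot1l(fl/fl) against Dot1l(+/+). GCGCANGCG was found in the promoters of 6 of the 13 genes with a RefSeq promoter (46.2%), against 7.03% of all genes, 36.4% of the fusion and inner membrane list and 33.3% of the mtDNA list, and a list of known NRF1 targets was in part chosen for it.

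**Figure D5:**
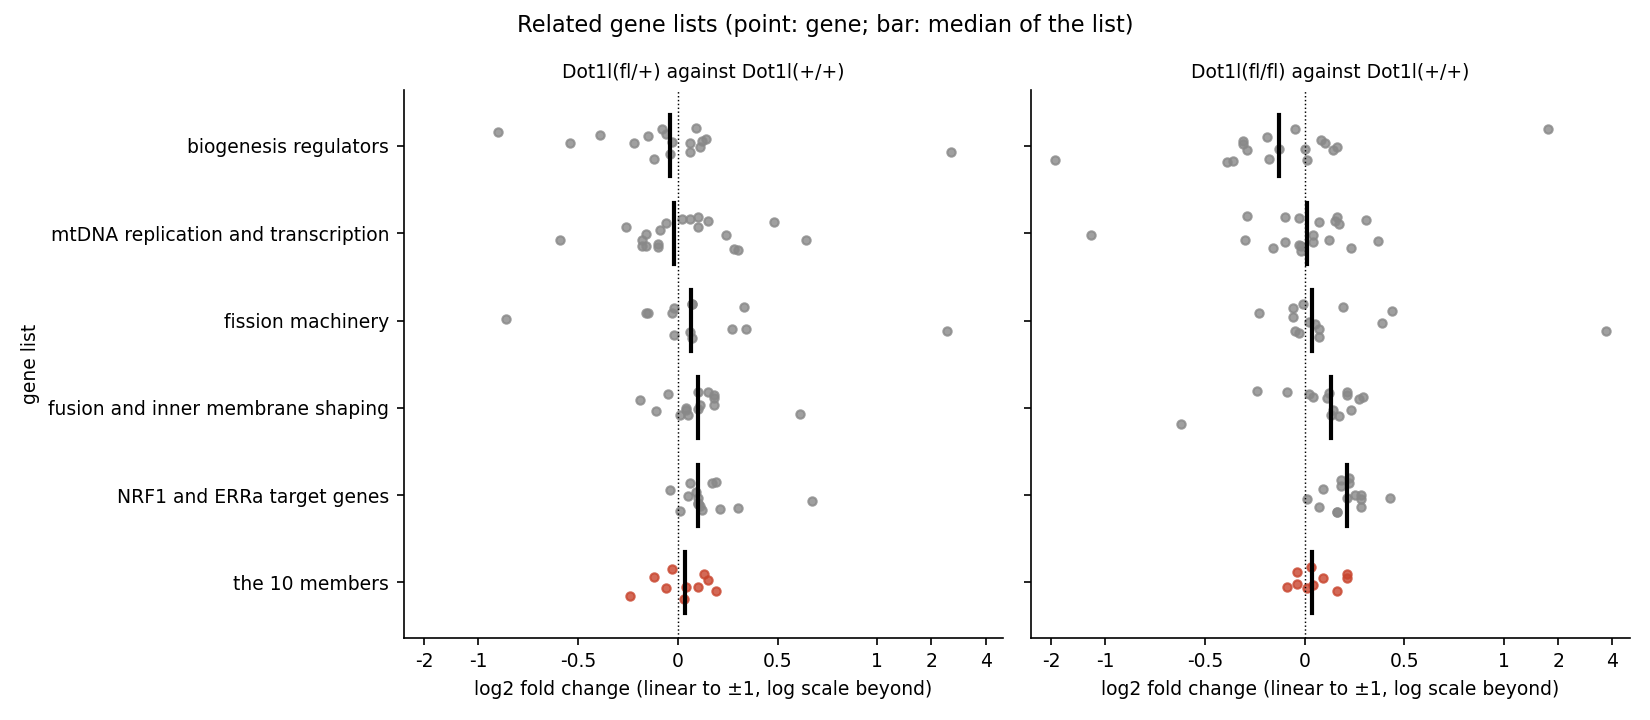
Log2 fold change of the genes of 5 related lists and of the 10 members (points; bar, median of the list) in Dot1l(fl/+) (left) and Dot1l(fl/fl) (right) against Dot1l(+/+), which share the Dot1l(+/+) libraries; the axis is linear to 1 and logarithmic beyond. The NRF1 and ERRα target genes lie above 0 in the right panel (15 of 15, or 14 of 15 without Dot1l(+/+) 2), while the members centre near 0 (median 0.04).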

How the data were processed

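Each file that the authors deposited held raw read counts of 1 library, as whole numbers by Ensembl identifier. Per the study's methods the libraries were directional, were mapped to GRCm38.p4, and were compared with DESeq2 1.10.1; the aligner, counting program and strand setting are not given in the sources used here. The authors' deposited tables of comparisons (mean normalised count, log2 fold change and its error, test statistic, p-values) were used for gene symbols alone. Coordinates, exon lengths and GC content came from GENCODE release 21 on GRCm38, which held 98.9% of gene identifiers, and promoters from RefSeq (GRCm38.p6).

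Groups were taken from the sample titles. Counts were tested with edgeR 4.0.16 (quasi-likelihood F test, TMM, filterByExpr) under R 4.3.3, all 3 genotypes in 1 fit without covariates, with Benjamini-Hochberg adjustment over 17988 genes and a threshold of 0.05. Log2 CPM used a prior count of 2. DESeq2 1.42.0 was an alternative. The procedure was tested on simulated data. The members, gene lists and the rule for names (2 highest and 2 lowest of each list) were chosen with earlier results of these data known.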

Additional observations from a re-analysis of the deposited data

Results flagged for a closer look

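Mfn1 and Mfn2 lay in opposite directions in the floxed genotypes: every Dot1l(fl/+) library lay on one side of the Dot1l(+/+) mean and both libraries labelled Dot1l(fl/fl) on the other. The share of all genes with such a pattern was not computed. For Mfn1 the margin was small, with Dot1l(fl/+) 2 at 80.0 CPM and the Dot1l(+/+) mean at 80.3 CPM. The tested log2 differences in Dot1l(fl/fl) against Dot1l(fl/+) were 0.15 for Mfn1 and -0.19 for Mfn2, each with an adjusted p of 0.998 (edgeR), so neither passed the threshold. Groups of 2 or 3 libraries were too small for a search for outlying samples.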

How the results depend on the processing

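None of the 10 members passed an adjusted p under 0.05 in any of 17 alternatives (other size factors, filters, DESeq2, 2 genotypes alone, replicate block, length and GC offset, each library left out), the smallest being 0.262. For Ppargc1a, Esrra and Polg, DESeq2 gave no adjusted p in Dot1l(fl/fl) against Dot1l(+/+) or in the trend. The number of genes past the threshold, 0 in each test, did change. In Dot1l(fl/fl) against Dot1l(+/+) no filter gave 106 genes, a mean count of at least 50 gave 2, and DESeq2 gave 183. For Dot1l(fl/+) against Dot1l(+/+) it was 11 with no filter. No filter and DESeq2 gave 14 and 1 for the difference between the floxed genotypes, and 172 and 295 for the trend. With the replicate block it was 6 (Dot1l(fl/fl) against Dot1l(+/+)), 4 (against Dot1l(fl/+)) and 1 (trend), and with replicate block and offset 17, 9 and 6. Deviations of same-numbered libraries from their genotype means had r from -0.031 to 0.045 over 7 pairs, against -0.051 to 0.045 over 14 others. These pairs are not independent, as the deviations of the 2 Dot1l(fl/fl) libraries mirror each other by construction. The study's methods match the pools by litter, but these values cannot decide whether the numbers mark the match. The fit without the block was kept. Leaving out 1 library gave 0 to 120 genes for Dot1l(fl/fl) and 0 for Dot1l(fl/+) against Dot1l(+/+), 0 to 4 between the floxed genotypes and 0 to 291 for the trend: 120 and 291 came from leaving out Dot1l(+/+) 2, and leaving out that labelled Dot1l(fl/fl) 2 gave 8, 4 and 61, whereas leaving out that labelled Dot1l(fl/fl) 1 gave 1, 1 and 0. A genotype left with 1 library is assumed to vary like the others. The cause of these shifts was not tested.

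The member median, 0.04 and 0.03 against Dot1l(+/+), ranged over left-out libraries from 0.02 (without the library labelled Dot1l(fl/fl) 2) to 0.12 (without the library labelled Dot1l(fl/fl) 1) in Dot1l(fl/fl), and from -0.02 (without Dot1l(fl/+) 2) to 0.06 (without Dot1l(+/+) 1) in Dot1l(fl/+).

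With replicate block and offset, members above 0 between the floxed genotypes went from 7 to 4 of 10. Signs turned for small differences. With the offset, Opa1 was 0.01 (Dot1l(fl/fl)) and 0.01 (Dot1l(fl/+)) against Dot1l(+/+), Ppargc1a and Opa1 were 0.00 between the floxed genotypes, and Polg and Opa1 were 0.05 and 0.01 in the trend. With block and offset, Dnm1l was -0.01 in Dot1l(fl/fl) and Opa1 0.00 in Dot1l(fl/+) against Dot1l(+/+), Ppargc1a 0.00, Esrra -0.03 and Tfam -0.01 between the floxed genotypes, and Polg 0.04 in the trend. Over left-out libraries, Dot1l(fl/fl) against Dot1l(+/+) ran from -0.19 to 0.18 for Ppargc1a, -0.14 to 0.10 for Esrra, -0.24 to 0.23 for Polg, -0.11 to 0.16 for Dnm1l and -0.11 to 0.01 for Opa1. Dot1l(fl/+) against Dot1l(+/+) ran from -0.19 to 0.18 for Ppargc1a, -0.21 to 0.02 for Esrra, -0.01 to 0.05 for Dnm1l and -0.11 to 0.06 for Opa1. Dot1l(fl/fl) against Dot1l(fl/+) ran from -0.06 to 0.14 for Ppargc1a, -0.12 to 0.13 for Nrf1, -0.01 to 0.14 for Esrra, -0.05 to 0.09 for Tfam, -0.02 to 0.19 for Fis1, -0.14 to 0.12 for Dnm1l and -0.10 to 0.06 for Opa1. The trend ran from -0.10 to 0.09 for Ppargc1a, -0.08 to 0.05 for Esrra, -0.15 to 0.06 for Polg, -0.03 to 0.07 for Dnm1l, -0.01 to 0.07 for Mfn1, -0.08 to 0.02 for Mfn2 and -0.05 to 0.00 for Opa1.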
